A study of Mus musculus with 8 samples.

Results

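The H3K9me1-only segments are stretches of the mouse genome where a map of wild-type mouse embryonic fibroblasts (MEFs) carried monomethylation of lysine 9 of histone H3 and neither dimethylation (H3K9me2) nor trimethylation (H3K9me3). They were selected on the measured region lists themselves. The 3 lists were split into runs of bases by the set of marks covering them, and runs of at least 1500 bp with H3K9me1 alone were kept on chromosomes 5, 8, 9, 10, 11, 14, 15, 17 and 19. This gave 25882 segments, out of 101760 runs of that width with any set of marks in the whole series.

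The series held 8 chromatin immunoprecipitation sequencing (ChIP-seq) samples, with 2 replicates each of sonicated input DNA, H3K9me1, H3K9me2 and H3K9me3. All groups came from MEFs labelled wild type, with no treatment in the labels; per the study's methods these are E1c cells, which carry a tamoxifen-inducible conditional allele of *Eset1*, an H3K9 methyltransferase gene, that was still functional here. The authors deposited 1 list of enriched regions per mark, on a grid of 750 bp bins, with no score and no value per replicate, so every value below describes 1 map per mark with no spread between replicates. The lists do not carry the reads behind a region. The labelled cell type could not be checked against marker genes, since the lists hold no expression values.

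H3K9 methylation is placed by a set of methyltransferases that add up to 3 methyl groups to the same lysine. H3K9me3 is best known as the mark of constitutive heterochromatin, read by the HP1 proteins, and H3K9me2 as a mark of silent regions in the arms of chromosomes. H3K9me1 is the product of the first step and the substrate of the next steps, and it is also known from the bodies of transcribed genes.

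The segments lay mostly inside genes and stayed away from the CpG-rich starts of those genes. The 7 sequences of 200 bases given here show marked starts and marked gene bodies in GRCm38 (mm10), written 5′ to 3′ on the strand named, with each CpG dinucleotide in capitals. The 4 first are the bases just upstream of the annotated 5′ ends of *Tcap* (a sarcomere protein), *Pou5f1* (the pluripotency factor Oct4), *Cdkn1a* (the cell cycle inhibitor p21) and *Cacna1i* (a T-type calcium channel), whose 5′ ends lay inside a segment. The last 3 are the middle bases of the 3 widest segments, which lay in introns of *Mad1l1*, *Atp11a* and *Arid1b*. None of the 7 overlaps an annotated exon. The 5′ ends are the outermost annotated ones of each gene, and which start these cells used was not tested.
Tcap, chr11:98383611-98383810, plus strand: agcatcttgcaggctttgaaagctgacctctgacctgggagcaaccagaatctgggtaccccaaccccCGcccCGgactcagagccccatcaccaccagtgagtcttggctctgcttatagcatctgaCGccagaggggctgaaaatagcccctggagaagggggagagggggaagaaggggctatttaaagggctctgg
Pou5f1, chr17:35505818-35506017, plus strand: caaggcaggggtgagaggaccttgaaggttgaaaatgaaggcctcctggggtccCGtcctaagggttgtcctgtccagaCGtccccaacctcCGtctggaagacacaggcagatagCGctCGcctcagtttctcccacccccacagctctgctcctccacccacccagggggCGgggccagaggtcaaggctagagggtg
Cdkn1a, chr17:29090776-29090975, plus strand: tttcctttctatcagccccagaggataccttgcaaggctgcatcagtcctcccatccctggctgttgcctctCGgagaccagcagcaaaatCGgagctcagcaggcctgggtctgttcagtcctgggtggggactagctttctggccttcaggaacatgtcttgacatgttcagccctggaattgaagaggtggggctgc
Cacna1i, chr15:80287038-80287237, plus strand: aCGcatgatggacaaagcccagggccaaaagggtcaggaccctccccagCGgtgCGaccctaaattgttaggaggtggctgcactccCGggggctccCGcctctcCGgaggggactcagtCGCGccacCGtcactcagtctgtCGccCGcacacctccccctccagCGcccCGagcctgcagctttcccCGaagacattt
Mad1l1 segment, chr5:140072526-140072725, plus strand: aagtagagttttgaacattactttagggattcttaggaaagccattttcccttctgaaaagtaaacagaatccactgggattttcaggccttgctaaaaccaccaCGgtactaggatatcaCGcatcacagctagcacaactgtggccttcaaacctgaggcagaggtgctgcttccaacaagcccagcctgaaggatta
Atp11a segment, chr8:12827151-12827350, plus strand: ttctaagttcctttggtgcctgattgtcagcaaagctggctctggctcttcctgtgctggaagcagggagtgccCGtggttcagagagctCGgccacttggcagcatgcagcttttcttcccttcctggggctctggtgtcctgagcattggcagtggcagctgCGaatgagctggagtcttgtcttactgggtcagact
Arid1b segment, chr17:5293776-5293975, plus strand: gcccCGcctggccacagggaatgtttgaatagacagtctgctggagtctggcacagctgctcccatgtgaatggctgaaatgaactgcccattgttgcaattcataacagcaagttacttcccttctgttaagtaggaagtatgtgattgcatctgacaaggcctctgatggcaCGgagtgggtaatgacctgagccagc
The upstream bases held 3 CpG in *Tcap*, 6 in *Pou5f1* and 2 in *Cdkn1a*, against 14 in *Cacna1i*. The middle bases of the 3 widest segments held 2, 3 and 2 CpG. *Cacna1i* was thus an exception among marked starts, since its start was CpG-rich and lay inside a segment all the same.

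The segments covered 147 Mb, which was 50.4% of the 291 Mb of H3K9me1 on these chromosomes, 30.2% of the 486 Mb with any mark and 14.5% of the sequence. Their median width was 3.75 kb, with a 10th percentile of 1.5 kb and a 90th percentile of 12 kb. At the threshold of the rule, 4960 segments (19.2%) were 2 bins wide and just inside, and 5506 runs of 1 bin lay just outside. At the wide end, 249 segments reached 30 kb and held 6.80% of the bases. These numbers follow from the rule and are given as a description.

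Most segments stood alone. There were 16409 (63.4%, 101 Mb) with unmarked sequence on both sides, 6485 (25.1%) that touched another mark on 1 side and 2988 (11.5%) that did so on both sides. Of all segment edges, 75.9% met unmarked sequence and 16.5% met sequence with H3K9me1 and H3K9me2. A further 4.11% met H3K9me1 with H3K9me3, and 2.67% met all 3 marks. Direct borders with sequence that carried another mark without H3K9me1 were rare, with 279 edges next to H3K9me2 alone and 113 next to H3K9me3 alone. Segments that touched neither mark had a median distance of 28.5 kb to the nearest H3K9me2 or H3K9me3 base, and 5771 segments (22.3% of all) were over 50 kb away from one. Of 36774 H3K9me1 regions, 22508 held a segment and 2240 held 2 or more, up to 12.

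The chromosomes differed more in the share of H3K9me1 that the segments made up than in the share of sequence they covered. Coverage ranged from 8.23% on chromosome 14 to 20.5% on chromosome 19. The share of H3K9me1 bases in segments was 84.3% on chromosome 11 and 78.3% on chromosome 5, but 36.1% on chromosome 15 and 20.8% on chromosome 10. H3K9me2 or H3K9me3 covered 12.4% of chromosome 11 and 20.9% of chromosome 5, against 55.4% of chromosome 15 and 68.4% of chromosome 10. Stand-alone segments made up 25.3% of segments on chromosome 10 and 88.8% on chromosome 11. Whether this unevenness lies in the cells or in the region calls was not tested, and results that change without chromosomes 10 and 15 are given both ways.

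**Figure D1:**
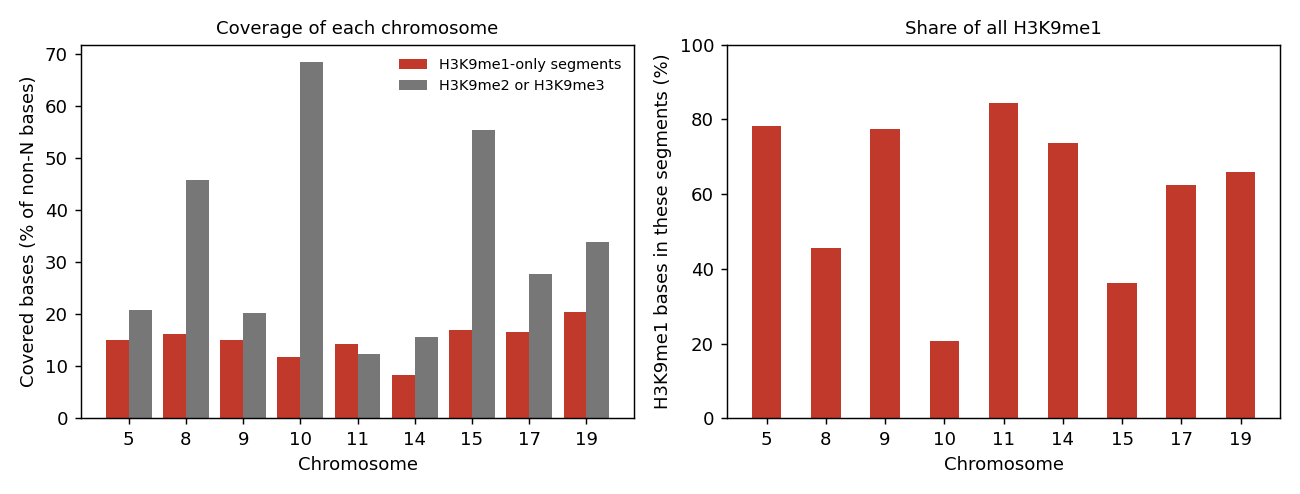
Coverage by chromosome. Left, percent of non-N bases (vertical axis) covered by H3K9me1-only segments (red bars) and by H3K9me2 or H3K9me3 (grey bars) on each chromosome (horizontal axis); right, percent of all H3K9me1 bases that lay in the segments. Chromosomes 10 and 15 have the tallest grey bars, at 68.4% and 55.4%, and the lowest shares on the right, at 20.8% and 36.1%.

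To ask what kind of sequence carried H3K9me1 alone, composition and annotation, which the rule did not use, were compared on each of the 9 chromosomes with unmarked sequence, with segments carrying H3K9me1 and H3K9me2 only, and with segments carrying H3K9me3 only. Differences within chromosomes were tested with an exact two-sided sign-flip permutation test, whose smallest p is 0.00391, and adjusted (Benjamini-Hochberg) over 18 tests. Chromosomes are parts of 1 map and not replicate samples, so the test sets a difference against the spread between chromosomes only.

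The bases of the segments lay mostly in gene bodies. Of their bases, 64.1% were intronic, 11.3% exonic and 24.5% intergenic, and 71% lay in the body of a protein-coding gene, against 40.0% of unmarked bases. Intergenic bases made up 24.7 ± 3.43% (mean ± SD, 9 chromosomes) of the segments and 53.0 ± 3.23% of unmarked sequence, a difference of -28.3 percentage points that was negative on 9 of 9 chromosomes (exact permutation test, adjusted p = 0.00586). The intergenic share was also lower than in segments with H3K9me1 and H3K9me2 (45.8 ± 4.78%) and in segments with H3K9me3 alone (59.4 ± 8.59%), by -21.2 and -34.7 points on average and on 9 of 9 chromosomes each (both exact permutation tests, adjusted p = 0.00586).

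Exons stood out further. The exonic share was 11.3 ± 0.570% in the segments, 4.68 ± 0.934% in unmarked sequence, 6.05 ± 1.10% in segments with H3K9me1 and H3K9me2, and 2.59 ± 0.852% under H3K9me3 alone. It was higher in the segments on 9 of 9 chromosomes in each comparison (exact permutation tests, adjusted p = 0.00586). Seen from the annotation, the segments covered 30.6% of exonic bases, 20.6% of intronic bases and 7.19% of intergenic bases.

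Gene starts, in contrast, were sparser than in unmarked sequence. The segments held 6.44 ± 1.80 protein-coding 5′ ends per Mb, against 15.2 ± 5.02 in unmarked sequence (lower on 9 of 9 chromosomes, exact permutation test, adjusted p = 0.00586). Segments with H3K9me1 and H3K9me2 held 8.74 ± 4.01 (the H3K9me1-only segments were lower on 8 of 9, exact permutation test, adjusted p = 0.0352), and H3K9me3-only segments 3.85 ± 1.73 (the H3K9me1-only segments were higher on 8 of 9, exact permutation test, adjusted p = 0.0100). With all annotated genes these last differences were -4.64 and 4.72 per Mb, in place of -2.30 and 2.59, and the difference from H3K9me3-only segments was 1.55 with stand-alone segments. Pooled over all bases, the densities were 6.34 in the segments, 13.3 in unmarked sequence, 6.83 with H3K9me1 and H3K9me2, and 3.75 under H3K9me3 alone. The pooled values of the segments and of H3K9me1 with H3K9me2 were thus closer than their means over chromosomes.

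The sequence itself was GC-richer and poorer in repeats than unmarked sequence and than H3K9me3-only segments, and could not be told from segments with H3K9me1 and H3K9me2 in either measure. GC content was 45.8 ± 1.18% against 40.6 ± 1.15% in unmarked sequence and 42.1 ± 2.06% under H3K9me3 alone, and was higher in the segments on 9 of 9 chromosomes (exact permutation tests, adjusted p = 0.00586). Against segments with H3K9me1 and H3K9me2 the difference was 0.2 points, ranging from -0.861 to 0.977 over the chromosomes (exact permutation test, adjusted p = 0.367). The repeat-masked share was 24.8 ± 0.742%, against 34.2 ± 1.68% in unmarked sequence and 41.1 ± 5.32% under H3K9me3 alone, lower on 9 of 9 chromosomes (exact permutation tests, adjusted p = 0.00586). It differed by 0.551 points from segments with H3K9me2 as well (24.3 ± 1.94%, range of the difference -1.05 to 2.47, exact permutation test, adjusted p = 0.277). How reads that map to several places were treated was not given in the sources used here, and its part in the repeat shares was not tested.

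CpG dinucleotides were counted relative to the number that the C and G content would give (observed/expected). The ratio was 0.22 ± 0.00643 in the segments, 0.201 ± 0.0157 in unmarked sequence (higher on 8 of 9 chromosomes, exact permutation test, adjusted p = 0.0100) and 0.192 ± 0.00639 with H3K9me2 as well (higher on 9 of 9, adjusted p = 0.00586). Against H3K9me3 alone (0.202 ± 0.0158) the ratio was higher on 6 of 9 chromosomes (exact permutation test, adjusted p = 0.0352), and without chromosomes 10 and 15 this call was lost (difference 0.0106, adjusted p = 0.141). Over bases outside repeats the difference was 0.0412, in place of 0.0180 over all bases. Frequencies of 6-base words, not corrected for C and G content, were compared as well. Of 2080 words with strands joined, those most frequent in the segments relative to unmarked sequence were GCACGC (ratio 2.02) and CACGGC (ratio 2.01), and 45 of the 50 highest held a CpG, as did 604 of all words. The lowest were ATATAT (ratio 0.411) and TATATA (ratio 0.433), and 48 of the 50 lowest had at most 1 G or C. Since 31 of the 50 highest had at least 5 G or C, the words do not separate CpG from GC content.

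**Figure D2:**
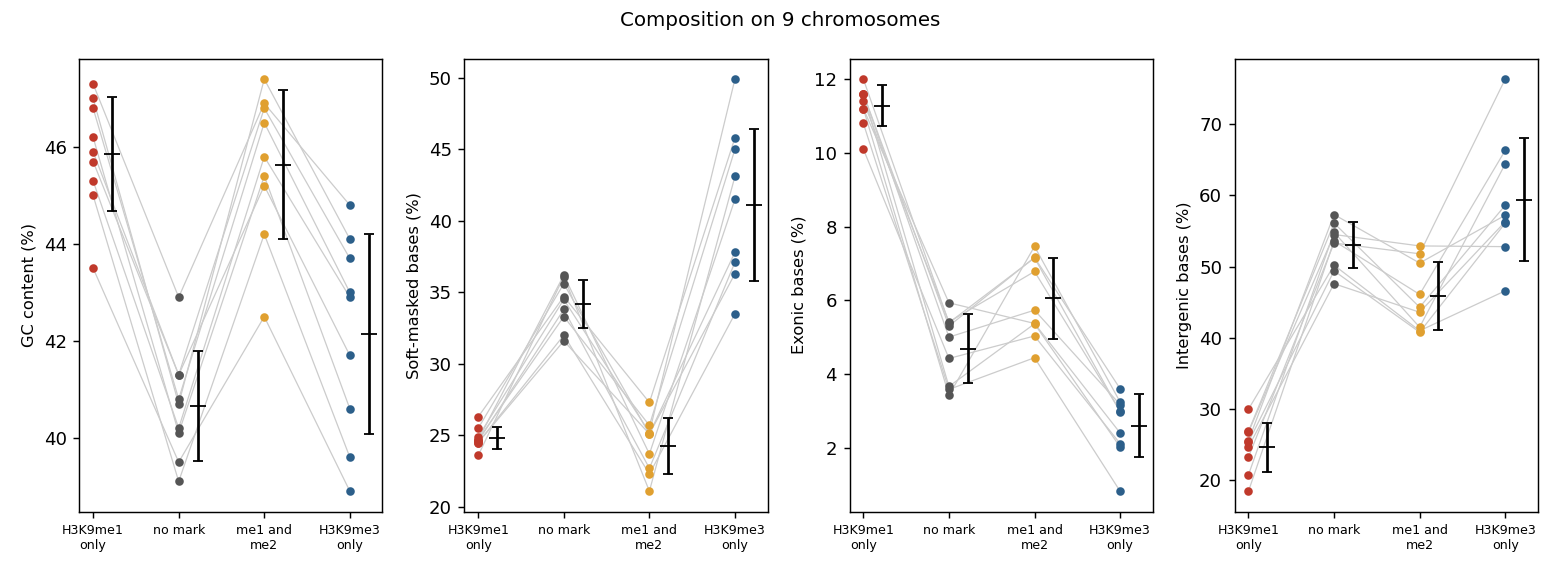
GC content, soft-masked (repeat) bases, exonic bases and intergenic bases, each in percent on the vertical axis, in H3K9me1-only segments, unmarked sequence, segments with H3K9me1 and H3K9me2 only, and segments with H3K9me3 only. Points are the 9 chromosomes, grey lines join the same chromosome, and black bars give the mean ± SD over chromosomes; the axes do not start at 0. The red points of the exonic share lie between 10.1% and 12%, above every other point of that panel.

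The segments also varied among themselves. Wider segments were more often genic, with 58.9% of bases in a gene for widths from 1.5 to below 3 kb, 74.6% from 6 to below 12 kb and 94.5% from 30 kb. Their repeat-masked share went from 26.5% to 24.9% and 22.3% over the same widths, while GC content stayed between 44.8% and 46.4% in all 5 width classes. Stand-alone segments had 12.1% exonic bases, against 10% where another mark touched 1 side and 8.11% where both sides were touched.

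The 10 widest segments all lay in protein-coding genes and contained no annotated protein-coding 5′ end. The widest, chr5:140017501-140127750 (110.25 kb), covered 35.2% of *Mad1l1*, which encodes a spindle checkpoint protein. The next, chr8:12781501-12873000 (91.5 kb), covered 78.1% of *Atp11a*, a phospholipid flippase gene. The next, chr17:5253001-5334750 (81.75 kb), covered 23.1% of *Arid1b*, a subunit gene of the BAF remodelling complex. The others lay in *Armh3* (79.5 kb), *Map2k5* (a kinase of the ERK5 pathway, 76.5 kb), *Scaf8* (76.5 kb, 90.4% of the gene), *Ppp6r2* and *Sbf1* (74.25 kb), *Fto* (an RNA demethylase gene, 69.0 kb), *Tbc1d22a* (67.5 kb) and *Nipbl* (the cohesin loader, 65.25 kb). Intergenic bases made up at most 5.92% of any of them. Their GC content ran from 37.4% in *Nipbl* to 50.9% in *Mad1l1*, so the widest segments were not all GC-rich.

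Gene starts were then examined, to ask how the segments lie relative to promoters. Of 9632 protein-coding genes on the 9 chromosomes, 931 had their annotated 5′ end inside a segment, which is 9.67% and serves as the background for the gene groups described further on. Another 7011 starts (72.8%) carried no mark. Starts with H3K9me1 beside other marks are not in the 9.67%. Of all starts, 2.70% carried H3K9me1 and H3K9me2, 0.540% H3K9me1 and H3K9me3, and 6.16% all 3 marks. Starts were called CpG-rich where the 500 bp on either side had at least 50% GC and a CpG observed/expected of at least 0.6. Of 4624 CpG-rich starts, 79 (1.71%) lay inside a segment and 92.2% were unmarked. Of 5008 CpG-poor starts, 852 (17%) lay inside a segment. Over the chromosomes this was 1.70 ± 0.666% against 17 ± 3.75%, lower for CpG-rich starts on 9 of 9 chromosomes (exact permutation test, adjusted p over 4 tests = 0.00521). The difference of -15.3 points was -8.60 with segments of at least 6 kb and -9.42 with stand-alone segments.

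The depletion at starts was narrow. Within 500 bp of a start, segments covered 9.90 ± 1.94% of bases, against 27.8 ± 7.87% at 2 to 5 kb downstream, and the difference of -17.9 points was negative on 9 of 9 chromosomes (exact permutation test, adjusted p = 0.00521). It was -11.2 points with segments of at least 6 kb and -8.84 points over the starts of all annotated genes, with the same adjusted p. Coverage 2 to 5 kb downstream was not told apart from that 2 to 5 kb upstream (27.4 ± 7.41%), with a difference of 0.378 points that ran from -2.81 to 8.21 over the chromosomes (exact permutation test, adjusted p = 0.828). With segments of at least 6 kb alone the difference was 2.32 points (exact permutation test, adjusted p = 0.00781), and with stand-alone segments or without chromosomes 10 and 15 it was negative and not called. Beside CpG-rich starts, coverage was 33.1% in the 500 bp bin from -4 kb, 1.79% in the bin from the start, 8.55% from 1 kb, 23.4% from 2 kb and 34.3% from 4 kb. Beside CpG-poor starts it was 21.7%, 17.2% and 23.7% in the bins from -4 kb, the start and 4 kb. Sequence with H3K9me1 and H3K9me2 dipped at CpG-rich starts as well, from 4.38% to 0.249%, whereas H3K9me3-only sequence was at 2.52% at these starts and 1.49% in the bin from -4 kb.

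**Figure D3:**
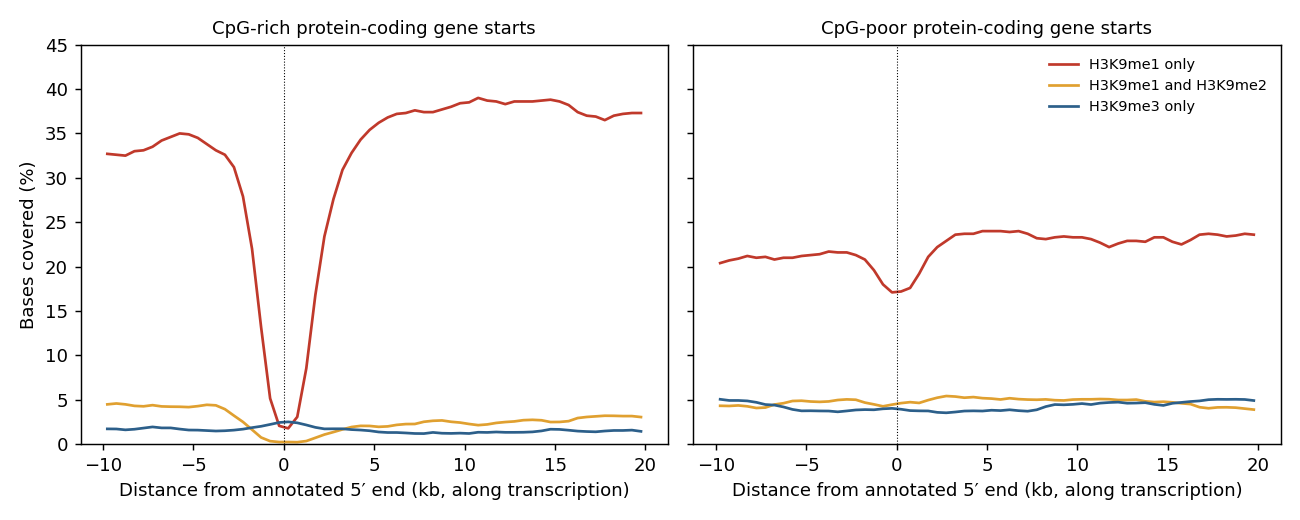
Percent of bases covered (vertical axis) in 500 bp steps by distance from the annotated 5′ end along transcription (horizontal axis, kb), for CpG-rich (left) and CpG-poor (right) protein-coding starts. Lines are H3K9me1-only segments, segments with H3K9me1 and H3K9me2 only, and segments with H3K9me3 only; each line is 1 pooled map with no error. The red line falls to 1.79% at CpG-rich starts and to 17.2% at CpG-poor starts.

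In genes of at least 20 kb whose 5′ end was unmarked, the distance from the start to the first segment varied widely. Of 2354 such genes with a CpG-rich start, 87.4% held the beginning of a segment, at a median of 6.12 kb from the start (quartiles 2.37 and 17.1 kb). Of 964 with a CpG-poor start, 67.1% did, at a median of 5.06 kb (quartiles 2.04 and 13.9 kb). The distances leave out genes that held no such beginning.

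Coverage then increased along the gene. In genes of at least 20 kb, the first 10% of the body was covered to 15.8 ± 4.54% and the last 10% to 31.4 ± 6.02%, a difference of -15.6 points that was negative on 9 of 9 chromosomes (exact permutation test, adjusted p = 0.00521). Pooled over genes by bases, coverage was 15.4% in the first 10%, 22.6% in the fifth step of 10% and 31.0% in the last. Coverage by H3K9me1 with H3K9me2 went from 3.04% to 3.93%, and by H3K9me3 alone from 6.45% to 5.83%. With each gene weighted equally, segments covered 41.3% of bases in the 500 bp bin from -2.5 kb to the 3′ end, 38.3% in the bin just past the end and 29.0% in the bin from 9.5 kb past it, so coverage beyond the ends fell without reaching 0.

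**Figure D4:**
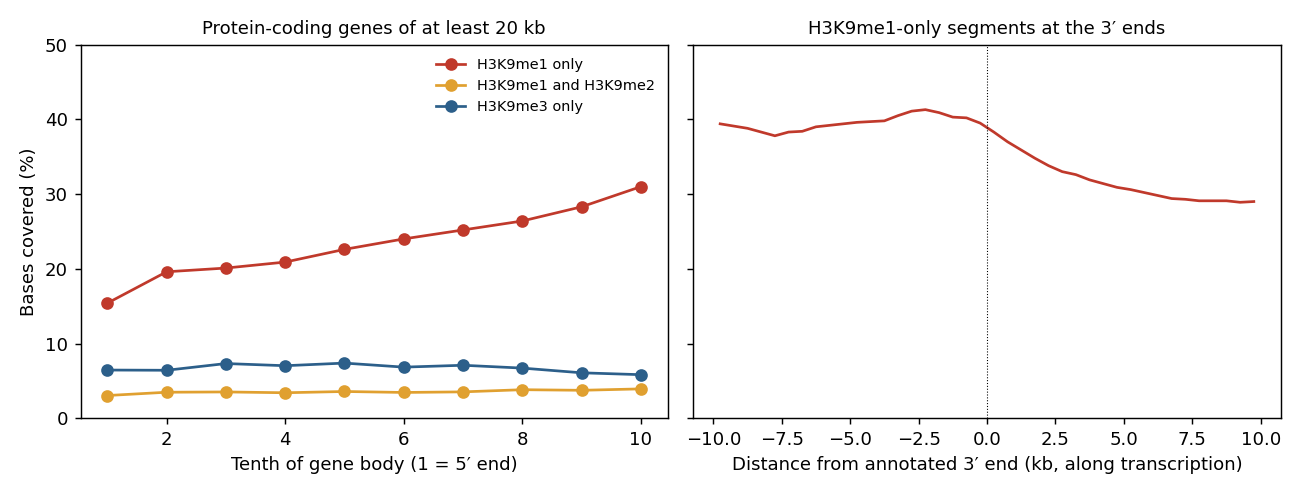
Left, percent of bases covered (vertical axis) in each of 10 equal parts of protein-coding genes of at least 20 kb, from 5′ to 3′ (horizontal axis), for the 3 kinds of segment. Right, percent covered by H3K9me1-only segments in 500 bp steps by distance from the annotated 3′ end (kb). The red line on the left goes from 15.4% to 31.0%, and that on the right from 41.3% before the 3′ end to 29.0% past it.

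Segments covered gene bodies to very different degrees. Of the 9632 genes, 2815 had at least 50% of the body covered (29.2%, the background for gene groups), 3673 (38.1%) had no segment base, and the median was 17%. Genes from 20 to 50 kb were covered most, with 35.8% of their bases in segments, against 20.7% below 5 kb and 9.15% from 300 kb. Genes with their 5′ end inside a segment had a median of 62.1%, and 61.0% of them were covered over at least 50%. Part of this is built in, since each such gene holds segment bases by definition. These genes were also shorter, with a median length of 10.9 kb. Genes with an unmarked 5′ end had a median of 22.4%, and 31.2% were covered over at least 50%. Among 331 genes whose 5′ end carried H3K9me3 alone, the median was 0 and 2 (0.604%) were covered over at least 50%. They were longer than genes with an unmarked 5′ end (median length 26.6 kb against 18.4 kb). Bases under H3K9me3 cannot lie in a segment, so part of this low coverage is built in as well.

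Among genes of at least 20 kb the largest shares were in *Pnldc1* (100%), *Stab1* (a scavenger receptor, 99.2%), *Ide* (insulin-degrading enzyme, 98.0%), *Tbc1d24* (97.3%) and *Sgsm3* (96.4%). *Rnf41* (96.3%), *Mau2* (a partner of the cohesin loader, 96.3%), *Xylb* (xylulokinase, 96.2%), *Gpt2* (alanine aminotransferase, 95.9%) and *Atp11a* (95.5%) followed. In 8 of these 10, all but *Pnldc1* and *Stab1*, the annotated 5′ end was unmarked, as it was in 72.8% of all genes. Counted in bases, *Pard3* (a cell polarity gene) led with 418 kb, or 76.1% of its body. It was followed by *Utrn* (utrophin, 362 kb), *Ptprk* (a receptor phosphatase, 332 kb), *Vps13b* (314 kb) and *Arid1b* (302 kb, 85.3%), and all 5 had a CpG-rich, unmarked 5′ end, the state of 92.2% of CpG-rich starts.

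Genes that the study uses as examples or controls fell on either side. *Tcap* was covered over its whole 1.14 kb and *Pou5f1* over 73.2%, and both had their 5′ end inside a segment. *Cdkn1a* (38.5%) and *Cacna1i* (17.8%) also had their annotated 5′ end inside a segment, and the bases upstream of it were printed earlier. *Bbs9*, a gene of the ciliary BBSome, was covered over 45.1% of 413 kb, and a transcript start of it lay within 1 kb of a segment, although its annotated 5′ end was unmarked. *Tlr3* (a sensor of double-stranded RNA, 34.1%) and *Cdk1* (the mitotic kinase, 12.6%) also had an unmarked 5′ end and a transcript start within 1 kb of a segment, and *Actb* (cytoplasmic actin) held no segment base.

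The list for writers, readers and erasers of H3K9 methylation held 14 genes, some of which act in DNA methylation instead. Of the 14, 1 had its 5′ end inside a segment (7.14%, against 9.67% of all genes). Covered over at least 50% were 2 (14.3%, against 29.2%). Both of these encode demethylases or their relatives, namely *Kdm4b* (80.9%) and *Jmjd1c* (80.6%). Among writers and their partners, *Ehmt2*, which encodes G9a, was covered over 28.9%, its partner *Wiz* over 46.6% and *Setdb2* over 3.86%. Of the HP1 genes, *Cbx5* was covered over 33.1% and *Cbx1* over 0%. *Uhrf1* (40.8%) and *Dnmt1* (19.2%) act in maintenance of DNA methylation, and the annotated 5′ end of *Dnmt1* was the 1 inside a segment. The other 13 starts of the list were unmarked. CpG-rich starts, a class with 1.71% inside, made up 12 of the 14. The other values were 15.8% in *Kdm4d*, 14.2% in *Cdyl2* and 10.3% in *Mphosph8*, and *Daxx* and *Hells* held no segment base.

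Groups of housekeeping machinery, whose lists also hold tissue-restricted paralogues, had different counts and different gene lengths. None of these counts was tested. Of all genes, 29.2% were covered over at least 50%, 38.1% held no segment base and 9.67% had their 5′ end inside a segment. Of 39 ribosomal protein genes, which had a median length of 3.43 kb and mostly CpG-rich starts, 35 (89.7%) held no segment base and 1 was covered over at least 50% (2.56%). That gene was *Rpl3l* (95.3%), a paralogue known from muscle. Of 23 proteasome genes 3 were covered over at least 50%, led by *Psmb11* (86.9%), which encodes a thymus-specific subunit, and *Psma4* (76.4%). Of 26 spliceosome genes 8 were (30.8%), with *Prpf40b* at 88.9% and *Lsm6* at 86.9%. Of 35 respiratory chain genes 12 were (34.3%), with *Ndufs7* at 88.5% and *Ndufb7* at 88.3%. Inside a segment lay 0 of their 35 starts, of which 27 were CpG-rich, a class with 1.71% inside. Of 29 cell cycle and replication genes 9 were (31.0%), among them *Mcm5* (a subunit of the replicative helicase, 84.5%) and *Pole* (a DNA polymerase, 72.7%). The shares of the spliceosome, respiratory chain and cell cycle groups lay near that of all genes.

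Genes of the fibroblast programme were read beside the background of 29.2% for bodies. Of 36 matrix and surface genes 9 were covered over at least 50% (25%), led by *P4ha2* (a collagen prolyl hydroxylase, 79.7%), *Timp3* (a metalloproteinase inhibitor, 71.7%), *Has2* (hyaluronan synthase, 69.6%) and *Col5a3* (67.6%). Of 20 actin and adhesion genes 5 were (25%), led by *Ptk2* (focal adhesion kinase, 79.5%) and *Limk1* (75.1%). None of the genes in either group had its annotated 5′ end inside a segment, beside 9.67% of all genes. CpG-rich starts, a class with 1.71% inside, made up 14 of the 36 and all 20. The other starts of the 36 were CpG-poor, a class with 17% inside, and 5 of the 36 carried H3K9me2 or H3K9me3. With any transcript start within 1 kb of a segment counted, 15 of the 36 and 10 of the 20 were met, beside 4088 of all 9632 genes.

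Receptor and defensin families were nearly bare of H3K9me1 alone, beside 38.1% of all genes with no segment base. Of 458 olfactory receptor genes 425 (92.8%) held no segment base and 12 (2.62%) were covered over at least 50%, among them *Olfr1371*, *Olfr1373* and *Olfr222* at 100%. Of 66 vomeronasal receptor genes 62 held none, and of 51 defensin genes 50 (98.0%) held none, with 41 of the 51 defensin starts under H3K9me2 or H3K9me3. Of 75 keratin and keratin-associated genes 59 held none, with *Krt42* at 96.6% and *Krt80* at 79.2%. H3K9me2 or H3K9me3 lay at 163 olfactory, 17 vomeronasal and 22 keratin starts, beside 1668 of all 9632. Bases under these marks cannot lie in a segment, so part of the low coverage is built in. Median lengths were 6.09 kb (olfactory), 24.7 kb (vomeronasal), 1.93 kb (defensins) and 4.81 kb (keratins), against 16.8 kb for all genes. The *Zfp* zinc finger genes were covered more often than these families. Of 153, 80 (52.3%) held no segment base, and 2 had their 5′ end inside a segment (1.31%, beside 9.67% of all genes). Another 13 starts carried H3K9me2 or H3K9me3. Covered over at least 50% were 25 (16.3%, beside 29.2% of all genes), led by *Zfp11* (92.9%) and *Zfp276* (90%). Reads in near-identical family members can be hard to place, and the part of this in the counts was not tested.

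Lists of developmental, voltage-gated channel and neurotransmitter receptor genes were counted without a test. Of all genes, 9.67% had their 5′ end inside a segment, 29.2% were covered over at least 50% and 38.1% held no segment base. Of 28 *Hox*, *Nkx* and *Pax* genes 3 had their 5′ end inside a segment (10.7%), namely *Hoxc8* (100% of the body), *Hoxc4* (79.1%) and *Nkx6-3* (65.7%), while 19 (67.9%) held no segment base. Of 17 voltage-gated channel genes 3 had their 5′ end inside a segment (17.6%), and 7 other starts carried H3K9me2 or H3K9me3. Of the 17, 5 were covered over at least 50% (29.4%, near the share of all genes), led by *Kcnh3* (95.0%), *Cacna1g* (62.7%) and *Cacna1h* (62.2%). Of 40 genes listed under neurotransmitter receptors 3 were covered over at least 50% (7.50%), led by *Grin3b* (100%) and *Chrnb1* (66.9%). H3K9me2 or H3K9me3 lay at 17 of these 40 starts, beside 1668 of all 9632.

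**Figure D5:**
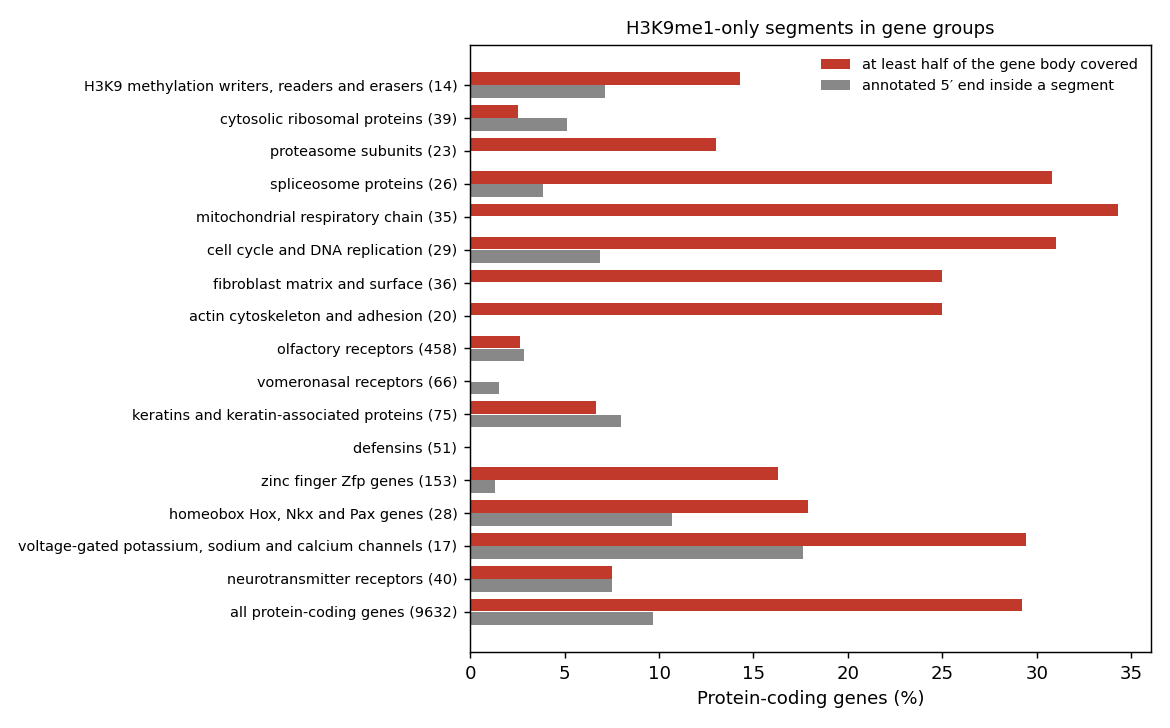
Percent of protein-coding genes (horizontal axis) with at least 50% of the body covered by H3K9me1-only segments (red) and with the annotated 5′ end inside a segment (grey), for 16 gene groups and for all 9632 genes, with the number of genes in brackets. All genes stand at 29.2% and 9.67%; respiratory chain genes stand at 34.3% and 0%, and olfactory receptors at 2.62% and 2.84%.

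Other transcripts started inside segments to different degrees. Of all 22392 annotated genes, protein-coding ones included, 2915 had their 5′ end inside a segment, a share near that of the lincRNA genes. The share was 25.3% of 1328 antisense genes, 25.2% of 831 microRNA genes, 19.9% of 567 snRNA genes, 13% of 2445 lincRNA genes and 12.6% of 3600 processed pseudogenes. Antisense transcripts and many microRNAs lie within other genes, and the segments do not tell their starts from the body of the gene around them.

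Motifs of common promoter factors were searched on both strands from 250 bp upstream to 50 bp downstream of protein-coding starts. GGGCGG, the core of the Sp1 motif, was in 24.0% of windows whose start lay inside a segment and in 45.6% of all windows. CCGGAA (ETS factors) was in 8.27% and 18.6% and TGACGT (CREB and ATF factors) in 3.65% and 9.19%. CCAAT was in 33.6% and 37.9%, and TATAAA in 13.5% and 11.7%. Among CpG-poor starts alone, GGGCGG was in 20.8% of windows inside a segment and 21.5% of all, CCGGAA in 7.39% and 8.77%, and TGACGT in 3.29% and 5.05%. There CCAAT was in 33.9% and 38.4%, and TATAAA in 13.7% and 17.2%, so the order of the TATAAA shares turned. GGGCGG can overlap CCGGAA by sharing bases on either strand, and a match says only that the letters are present.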

How the data were processed

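ChIP-seq was made with 2 replicates each of input, H3K9me1 (ab8896), H3K9me2 (ab1220) and H3K9me3 (ab8898). Per the study's methods and the submitters' processing notes, the authors aligned paired-end reads to mm10 (GRCm38) with BWA 0.7.1 and called regions with histoneHMM. How replicates and input entered the calls is not given in the sources used here. The deposited lists hold chromosome, start and end in bp, with no read counts or scores, so no error can be given for a single region. Both ends of an interval were counted in it, from position 1.

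Coverage was set against GENCODE M21 genes and the soft-masked GRCm38 sequence from RefSeq. Gene starts are annotated gene 5′ ends, the outermost of a gene, and which start these cells used was not tested. Unmarked sequence ran from the first called base to the chromosome end. Segments of the comparison classes were also at least 1500 bp wide. The sign-flip test, enumerated over 9 chromosomes with a threshold of 0.05 for the adjusted p, was tested on simulated data. Members and gene lists were chosen with earlier results of these data known. Named genes are those the study names, those met by the 10 widest segments, the 10 with the largest covered share and the 5 with the most covered bases, the H3K9 list whole, and the leading members of each other list. The width and gene length classes, the coverage of exons and introns, the 3′ profile and the distance to the first segment were added after the main results were seen. Alternatives were wider segments, stand-alone segments, other windows and annotations, and leaving out chromosomes 10 and 15. The software was SciPy 1.17.1 and NumPy 2.4.6 under Python 3.11.15, and plots were drawn with Matplotlib 3.10.9.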

Additional observations from a re-analysis of the deposited data

How the results depend on the processing

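No paired analysis was possible because each mark has a single list that joins its replicates; for the same reason no replicate could be left out. Of 144 alternatives of 22 tested results, 140 kept the direction and the side of the threshold. The number of segments was 16986 at a minimum width of 3 kb, 8306 at 6 kb and 16409 for stand-alone segments, and the covered length was 96.5 Mb at 6 kb; fewer runs pass by construction. Without chromosomes 10 and 15 the CpG observed/expected difference from H3K9me3-only segments was 0.0106 (exact permutation test, adjusted p = 0.141). Coverage downstream minus upstream of starts was 2.32 points at 6 kb (exact permutation test, adjusted p = 0.00781), -0.457 for stand-alone segments (adjusted p = 0.375) and -0.991 without chromosomes 10 and 15 (adjusted p = 0.156), against 0.378; the cause was not tested. Counting any transcript start within 1 kb of a segment gave 4088 genes in place of 931, and 17 counts over gene lists or all genes moved by over 1.5 times. The 750 bp bins limit positions, and the lists carry neither reads nor replicate spread for any region.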
